A study of Drosophila melanogaster with 5 samples.

Results

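The genes described here are 9 members of the humoral stress response and its JAK-STAT pathway in Drosophila melanogaster: the Turandot genes TotA, TotC, TotM and TotX, the ligand gene upd3, the receptor gene dome, the kinase gene hop, the transcription factor gene Stat92E and the inhibitor gene Socs36E. They were chosen by gene name among the 24034 features of the table of counts at 29 °C, and the same gene identifiers were found among the 23882 features of the table at 25 °C. All 9 were present in both tables. The RNA was polyadenylated RNA of fly heads, a tissue that the labels also call brain, in 5 labelled samples with 1 per group.

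At 29 °C there were 3 groups. The H1OE sample came from a cross, at 18 °C, of a histone H1 overexpression line with a temperature-sensitive Elav driver, which is named for a neuronal gene, and the progeny spent 7 days at 29 °C. The Levodopa sample at 29 °C came from flies fed 4 g/L Levodopa, the precursor of dopamine, for 7 days, and the control at 29 °C is labelled wild type. The labels give that control neither a driver nor a rearing temperature or length of stay at 29 °C, so its background and rearing are not known to match those of H1OE. At 25 °C, Levodopa-fed flies, with the same dose and feeding time, were set against a wild-type control. The series title concerns histone H1 and fat breakdown in flies. Each treatment is set here against the control of its own temperature, which for H1OE is not known to be matched in more than temperature.

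In flies, cytokines of the Unpaired family bind the receptor Domeless on the cell surface and activate Hopscotch, the only JAK kinase of the fly, which phosphorylates Stat92E. Stat92E then enters the nucleus and raises its targets, among them Socs36E, a feedback inhibitor that damps the pathway. Turandot proteins are small secreted proteins, made mainly by the fat body and found in the haemolymph, whose genes are induced by infection, heat, wounding and other stress through JAK-STAT together with MAP kinase and Relish inputs. upd3 is the Unpaired ligand known for release by haemocytes and damaged tissue. Fat body tissue is present in the fly head as well as in the abdomen.

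The Turandot genes are short, and some of them lie in small clusters. On the dm6 build TotA lay at chromosome 3R, 20871036 to 20871700, plus strand, with 579 exonic bases in 2 exons. TotC lay at 3R, 20872988 to 20873580, 1287 bases further on, with 530 exonic bases in 2 exons, and it was followed after 357 bases by TotB and then by TotZ. TotX stood apart from them, at 3R, 20904917 to 20905518 on the minus strand, a single exon of 602 bases that lies inside the span of the glutamate receptor gene Grik on the opposite strand and shares 0 exonic bases with it. TotM lay at 2L, 5329857 to 5330464, plus strand, with 552 exonic bases in 2 exons.

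The pathway genes are longer. upd3 lay at X, 18277233 to 18284596, plus strand (2221 exonic bases in 4 exons), between upd2, 33948 bases away, and upd1, 20757 bases away. dome lay at X, 19676061 to 19683518, minus strand (4875 exonic bases), 169 bases from et, which encodes a shorter receptor known to dampen the pathway. hop lay at X, 11360930 to 11368098, minus strand (5055 exonic bases in 10 exons). Stat92E lay at 3R, 20535323 to 20552311, minus strand (5210 exonic bases, 11 annotated transcripts), and Socs36E at 2L, 18138675 to 18152417, minus strand (3503 exonic bases). The files' positions and lengths equalled those of the annotation for all 9 genes.

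Library totals were 25947583 to 30334054 counts in the 4 columns at 25 °C and 24770629 to 26832877 counts at 29 °C, with 2 columns per sample at 25 °C and 1 library per group at 29 °C. The 23 His1 genes, which encode histone H1, had 0 counts in the H1OE library and in the Levodopa and control libraries at 29 °C, so that at most 3 counts, or 0.110 CPM, are compatible with the H1OE library; these counts do not check the overexpression label. Every marker of neurons, photoreceptors, glia, haemocytes and muscle that was looked at had counts in every library. Photoreceptor markers summed to 62454 CPM (counts scaled to a fixed library size) in H1OE, 63915 CPM in Levodopa and 61873 CPM in control at 29 °C, and neuron markers to 2569, 2447 and 2349 CPM in the same groups. The material therefore held the eye and nervous tissue that the label heads names, and fat body, haemocyte and muscle transcripts besides. In such bulk samples, fewer cells of a type and less RNA per cell cannot be told apart.

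Per length, TotA and Stat92E were the most abundant of the 9 transcripts and upd3 the least, in every library. The measure is FPKM, the count divided by gene length and library size, as deposited. In H1OE, Stat92E stood first at 73.8 FPKM and TotA second at 25.4 FPKM. In Levodopa at 29 °C Stat92E and TotA stood close together, at 91.3 and 90.1 FPKM, and in control at 29 °C TotA stood first at 128 FPKM, before Stat92E at 97.4 FPKM. TotA was above 89.4% of all features in H1OE, 96.9% in Levodopa and 97.7% in control.

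At 25 °C TotA stood first in all 4 columns, with 94.3 ± 2.14 FPKM in Levodopa and 106 ± 1.88 FPKM in control (SD, n = 2 columns). Stat92E followed at 67.0 ± 0.559 FPKM in Levodopa and 54.9 ± 1.61 FPKM in control. TotX, at 22.8 and 19.5 FPKM, and Socs36E, at 20.5 and 20.4 FPKM, changed places between the Levodopa columns, and TotC and Socs36E did so between the control columns, so these neighbours in the order do not differ beyond the spread between columns. dome, TotM and hop followed in that order in all 4 columns. upd3 had 0.190 and 0.250 FPKM in Levodopa and 0.0300 and 0.200 FPKM in control.

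**Figure D1:**
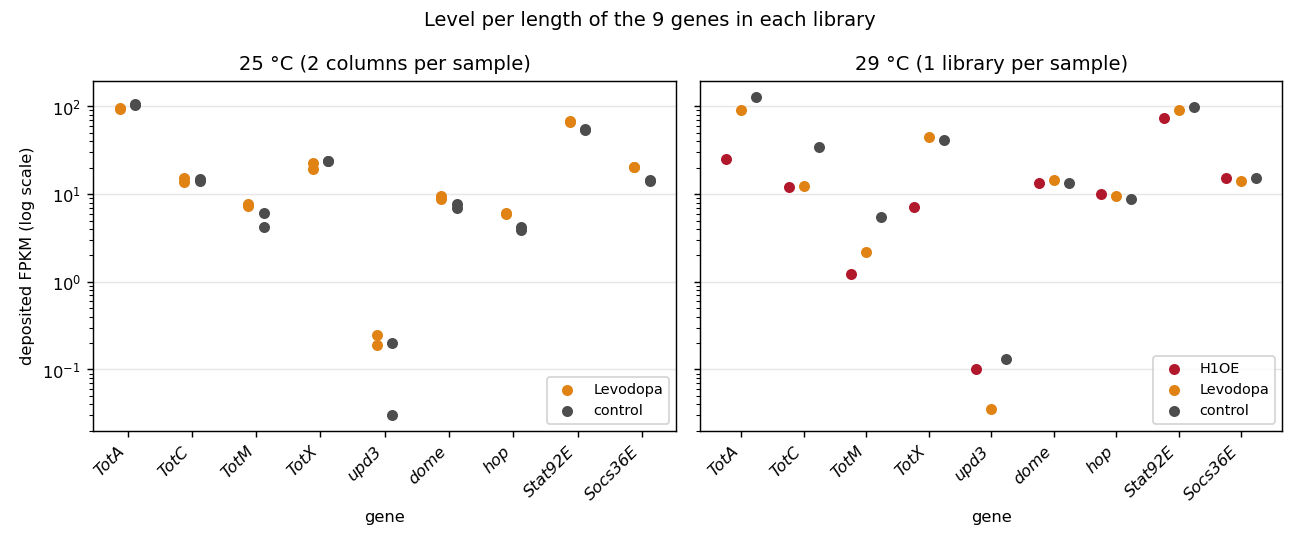
Deposited FPKM on a log axis for each of the 9 genes, with 2 columns per sample at 25 °C (left) and 1 library per sample at 29 °C (right), each point being 1 column or library. At 29 °C the H1OE points of TotA, TotM and TotX lie below both other libraries and that of TotC lies beside Levodopa, while dome, hop and Socs36E lie close together in all 3 libraries.

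Against the 29 °C control, all 4 measured Turandot genes were lower in H1OE, by 2.89-fold to 5.87-fold, and none of the intracellular pathway genes differed 2-fold. The size rule used here asks for a 2-fold difference once 10 counts have been added to both scaled libraries, and for at least 10 counts in 1 of them; with 1 library per group there is no test. By this rule 4 of the 8 genes that could be compared passed, all of them Turandot genes and all lower, where 3.77% of the 11340 genes compared passed as lower, 3.35% as higher and 7.13% in either direction. Of the 207 genes in the length range of the Turandot genes, 530 to 602 bases, 6.76% passed as lower. The median log2 fold change of the 4 Turandot genes was -2.02, beside -0.00 for all genes.

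TotA, the founding member of the family, had 394 counts in H1OE, 1342 in Levodopa and 1777 in control. H1OE was the lowest of the 3 libraries. TotA was 5.12-fold lower in H1OE than in control, with a 95% counting interval of 4.59 to 5.73. The intervals here come from the counts of both libraries and hold counting error alone, and PCR copies without molecular identifiers are counted as if they were separate molecules.

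TotX had 115 counts in H1OE, 688 in Levodopa and 595 in control. It was 5.87-fold lower in H1OE than in control (4.80 to 7.24), and its log2 fold change was -2.45. Its antisense host Grik had 683, 1224 and 957 counts in the same 3 libraries and did not pass (log2 fold change -0.66, H1OE over control). The strand setting of the counting is not given, so reads of TotX cannot be told apart by strand from unspliced reads of Grik.

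TotC, the neighbour of TotA, had 172 counts in H1OE, 167 in Levodopa and 438 in control. Here the control library stood above both others. TotC was 2.89-fold lower in H1OE than in control (2.42 to 3.47). TotM, a family member on another chromosome and known as a Stat92E target, had 18 counts in H1OE, 31 in Levodopa and 73 in control, which gave 4.60-fold lower in H1OE with the wide interval of 2.72 to 8.20. By log2 fold change TotX, TotA, TotM and TotC ranked 35, 44, 92 and 148 from the lowest among the genes compared.

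The other Turandot genes gave almost no counts. TotB, TotZ and TotF had 0 counts in every library, and Victoria, which is annotated as TotE, had 2 counts in 1 control column at 25 °C and 0 elsewhere. TotB and TotZ lie in the cluster that holds TotA and TotC. Whether reads matching several family members were dropped, split or assigned to 1 copy is not given in the sources used here, so counts of single members carry that uncertainty.

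**Figure D2:**
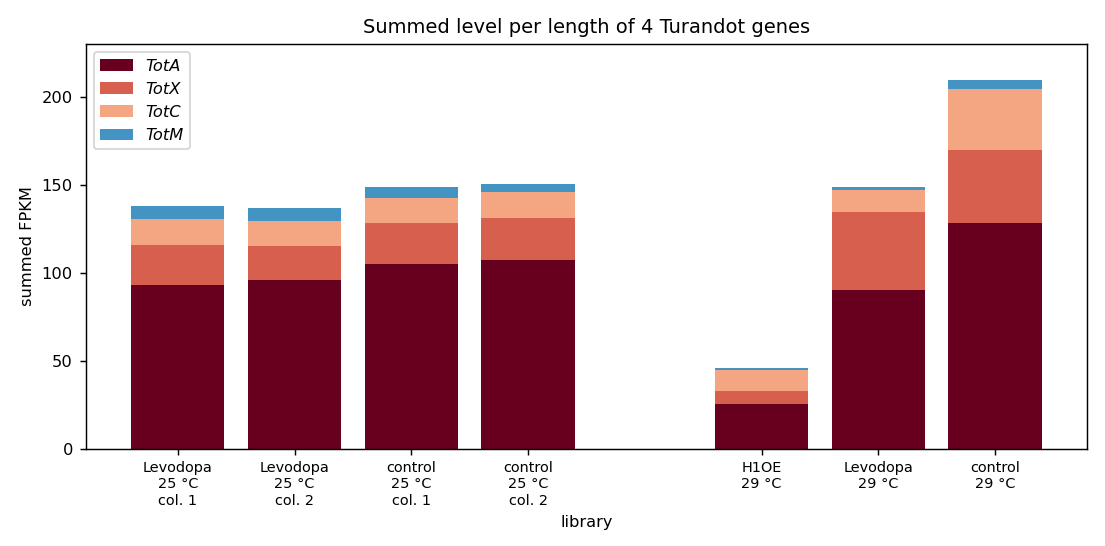
Stacked bars of deposited FPKM of TotA, TotX, TotC and TotM in each of the 4 columns at 25 °C and the 3 libraries at 29 °C. The H1OE bar is the shortest, at 45.9 FPKM, against 149 FPKM in Levodopa and 210 FPKM in control at 29 °C.

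Together the 4 genes gave 25.5 CPM in H1OE, 85.2 CPM in Levodopa and 120 CPM in control at 29 °C. The sum was 4.68-fold lower in H1OE than in control (4.31 to 5.09). The family's makeup also differed between the libraries. In summed FPKM, TotA made 55.4% of the family in H1OE, 60.5% in Levodopa and 61.2% in control. TotC made 26.4% in H1OE, 8.22% in Levodopa and 16.5% in control. For TotX the shares were 15.5% in H1OE, 29.8% in Levodopa and 19.7% in control, the highest of the 3 libraries being Levodopa.

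Fat body markers moved with this result. The 12 markers summed to 3987 CPM in H1OE, 11440 CPM in Levodopa and 16408 CPM in control at 29 °C, none of them at 0. Of the 10 that could be compared 8 were lower in H1OE by the size rule while 0 were higher (median log2 fold change -3.14). Among all genes compared 3.77% were lower and 3.35% higher. The larval serum protein gene Lsp2 had 906 counts in H1OE, 8698 in Levodopa and 20606 in control. The fat body gene fit had 12, 362 and 1670 counts in the same libraries. Markers of haemocytes, the blood cells that also produce pathway ligands, summed to 865 CPM in H1OE, 1205 CPM in Levodopa and 1219 CPM in control, and 0 of 9 passed. The part of tissue makeup in the Turandot difference was not tested.

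**Figure D3:**
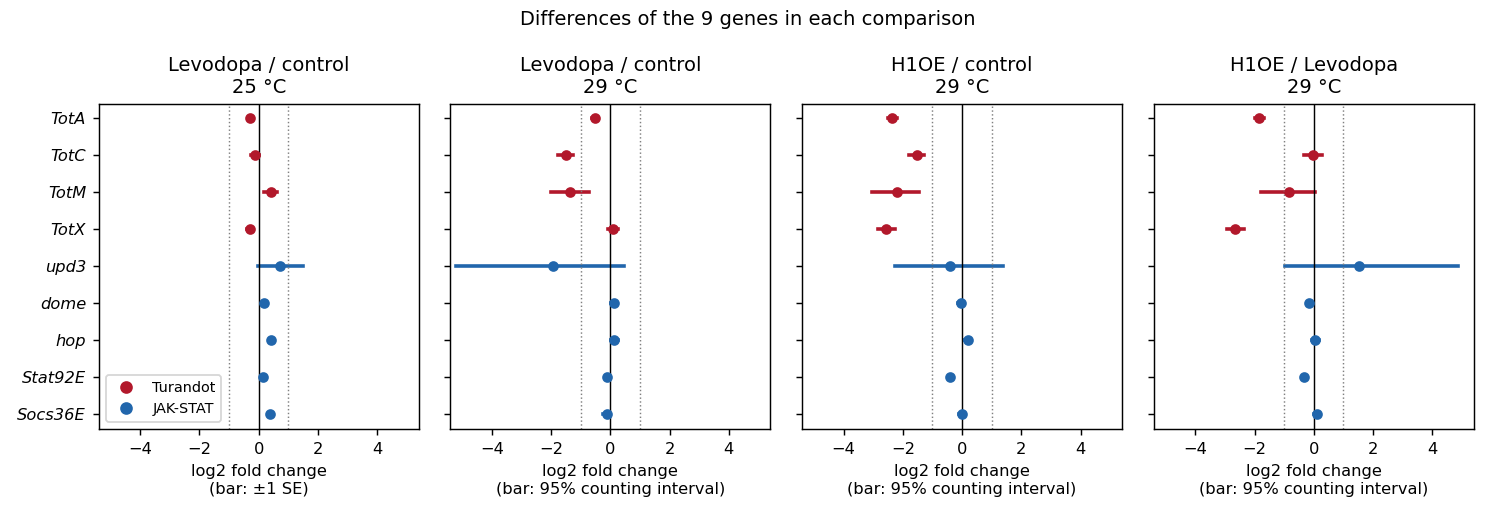
Log2 fold change of each of the 9 genes in the 4 comparisons, with bars of 1 SE at 25 °C (edgeR) and 95% counting intervals at 29 °C (ratios of scaled counts); dotted lines mark 2-fold. In H1OE over control the Turandot points (red) lie left of the 2-fold line, while dome, hop, Stat92E and Socs36E lie between the lines in all 4 panels.

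The ligand, receptor, kinase and transcription factor genes gave a different picture in H1OE. upd3 had 6 counts in H1OE, 2 in Levodopa and 7 in control, too few for the size rule, and its ratio of H1OE to control was 0.755 with an interval of 0.210 to 2.62. At this depth a difference of that gene was not detectable. The other ligand genes were as scarce: upd1 had 8 counts in H1OE, 4 in Levodopa and 2 in control, and upd2 had 4, 8 and 10.

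dome, which encodes the receptor, had 1728 counts in H1OE, 1829 in Levodopa and 1555 in control, a ratio of H1OE to control of 0.979. hop, the kinase gene, had 1356 counts in H1OE, 1250 in Levodopa and 1052 in control, a ratio of 1.14 (1.05 to 1.23). Both stayed well inside the 2-fold limits. Stat92E had 10291 counts in H1OE, 12235 in Levodopa and 12136 in control. Its ratio of H1OE to control was 0.747 (0.728 to 0.767), the largest difference among these pathway genes, which did not pass. Markers of glia, the support cells of the nervous system, were lower in H1OE beside it: they summed to 976 CPM in H1OE, 1297 CPM in Levodopa and 1260 CPM in control, none at 0, 4 of 5 had a negative log2 fold change over control (median -0.33), and 0 of 5 passed. Their part in the Stat92E value was not tested.

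Socs36E, the feedback inhibitor and the pathway target most often used as its readout, had 1445 counts in H1OE, 1275 in Levodopa and 1278 in control. Scaled to library size this was 52.8 CPM in H1OE, 48.8 CPM in Levodopa and 53.0 CPM in control. The ratio of H1OE to control was 0.996 with an interval of 0.923 to 1.07. The library in which TotA and TotX were lowest held Socs36E at the control level within counting error. These are values of whole heads, and pathway activity in any tissue was not tested. TotA stood at 1.65 times the FPKM of Socs36E in H1OE, 6.37 times in Levodopa and 8.41 times in control.

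**Figure D4:**
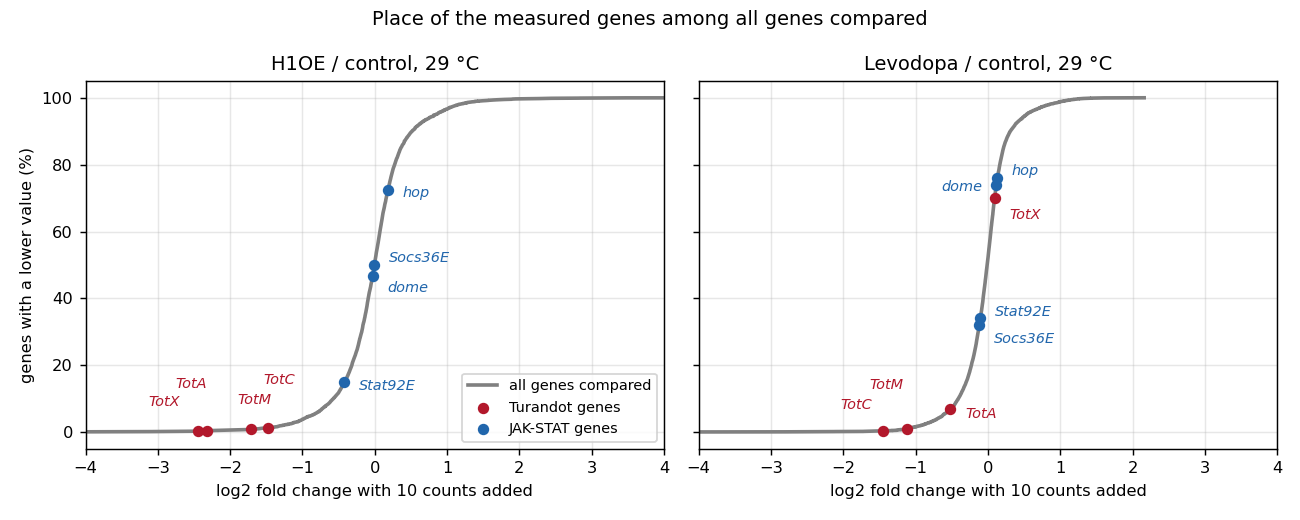
Share of all genes compared at 29 °C with a lower log2 fold change, against that log2 fold change, for H1OE over control (left) and Levodopa over control (right); the grey line is all genes, and points are the measured Turandot (red) and JAK-STAT (blue) genes. In H1OE the 4 Turandot genes lie at the low end of the line, at log2 fold changes of -1.48 to -2.45, and in Levodopa TotC and TotM lie there.

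Levodopa at 29 °C went with lower TotC and TotM, but not TotX. Against the same control, 2 of the 8 genes that could be compared passed the size rule, both lower, where 1.54% of 11145 genes passed as lower, 1.15% as higher and 2.69% in either direction. Of the 188 genes in the length range of the Turandot genes, 530 to 602 bases, 4.79% passed as lower. With 167 counts in Levodopa and 438 in control, TotC was 2.85-fold lower in Levodopa (2.38 to 3.42). It ranked 39 from the lowest among the 11145 genes. With 31 counts in Levodopa and 73 in control, TotM was 2.55-fold lower in Levodopa (1.66 to 4.02). Its log2 fold change of -1.12 became -0.98 once the trend of fold change with gene length was removed, which ended its call and left TotC alone.

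TotA was 1.44-fold lower in Levodopa than in control at 29 °C (1.34 to 1.54), inside the 2-fold limits. TotX, with 688 counts in Levodopa and 595 in control, had a ratio of 1.07 with an interval of 0.954 to 1.19. The 4 Turandot genes had a median log2 fold change of -0.82, beside -0.01 for all genes, and their sum was 1.40-fold lower in Levodopa (1.33 to 1.48). The H1OE and Levodopa comparisons share this control library, so what is peculiar to it enters both.

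The pathway genes lay within 0.13 log2 units of the control in Levodopa at 29 °C. The log2 fold change was 0.12 for dome, 0.13 for hop, -0.11 for Stat92E and -0.12 for Socs36E. upd3, with 2 counts in Levodopa and 7 in control, had a ratio of 0.263 with an interval of 0.0267 to 1.38. Fat body markers were lower here too: 6 of the 11 that could be compared were lower in Levodopa, 1 was higher, and the median log2 fold change was -1.05. Among all genes compared 1.54% were lower and 1.15% higher. Haemocyte markers gave 0 of 9. The part of tissue makeup was again not tested.

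H1OE set directly against Levodopa, without the control, separated TotA and TotX from TotC. Of the 8 genes that could be compared 2 passed, both lower in H1OE, where 3.01% of 11364 genes passed as lower, 3.15% as higher and 6.16% in either direction. Of the 211 genes in the length range of the Turandot genes, 5.21% passed as lower. TotX was 6.26-fold lower in H1OE than in Levodopa (5.13 to 7.69). With a log2 fold change of -2.54 it ranked 21 from the lowest among the 11364 genes. TotA was 3.56-fold lower in H1OE (3.18 to 4.00). TotC, in contrast, had a ratio of 0.984 (0.791 to 1.23), and TotM, with 18 and 31 counts, one of 0.555 (0.292 to 1.02). The log2 fold changes of the pathway genes were -0.15 for dome, 0.05 for hop, -0.31 for Stat92E and 0.11 for Socs36E. Fat body markers were lower in H1OE for 6 of 11 and higher for 0.

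At 25 °C none of the 9 genes differed 2-fold between Levodopa and control. Each column entered edgeR's quasi-likelihood test as a library, 2 for Levodopa and 2 for control, and a call needed a Benjamini-Hochberg adjusted p under 0.05 and a 2-fold change. The labels do not say whether the columns come from separate flies, so a p-value here is read against column-to-column spread alone, and that may be technical. 0 of the 9 genes were called, where 5.16% of 11799 genes were, 2.02% as higher and 3.14% as lower. Without the fold minimum 6 of 9 had an edgeR adjusted p under 0.05 (66.7%), beside 58.5% of all genes tested. Of these, 4 were higher in Levodopa, beside 26.5% of all genes, and 2 lower, beside 32% of all genes. 6 had an unadjusted p under 0.05, beside 61.6% of all genes, and DESeq2 called 0 of 9, with 4 at an adjusted p under 0.05.

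TotA had 51.0 and 53.1 CPM in the Levodopa columns and 63.5 and 65.4 CPM in the control columns. The groups did not overlap, and the log2 fold change was -0.31 (SE 0.05, edgeR adjusted p 4.44e-08). TotX had 13.0 and 11.2 CPM in Levodopa and 14.9 and 15.0 CPM in control, with a log2 fold change of -0.30 (SE 0.11, edgeR adjusted p 0.0112). For TotC the columns held 7.61 and 7.04 CPM in Levodopa and 7.75 and 8.27 CPM in control, a difference within its error (-0.13, SE 0.14, edgeR adjusted p 0.443). With total counts as library sizes its log2 fold change was 0.01.

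TotM leaned the other way. It had 120 and 130 counts in Levodopa and 88 and 67 in control, or 3.79 and 4.10 CPM in Levodopa and 3.55 and 2.44 CPM in control. The log2 fold change was 0.40 (SE 0.21), and the edgeR adjusted p of 0.0887 missed the threshold. Most of its spread lay between the control columns: the value was 0.69 without control column 1 and 0.15 without control column 2. With total counts as library sizes the edgeR adjusted p was 0.0184.

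The pathway genes were higher in Levodopa at 25 °C by less than 2-fold. Socs36E had 68.2 and 68.4 CPM in Levodopa and 52.3 and 53.1 CPM in control (log2 fold change 0.37, SE 0.05, edgeR adjusted p 1.57e-11). hop had 29.2 and 28.7 CPM in Levodopa and 22.6 and 20.9 CPM in control (0.41, SE 0.08, edgeR adjusted p 1.16e-06). For both genes the columns lay closer together within a group than between the groups.

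Stat92E had 333 and 333 CPM in Levodopa and 305 and 294 CPM in control (0.15, SE 0.03, edgeR adjusted p 1.17e-08). dome had 44.2 and 41.1 CPM in Levodopa and 35.8 and 39.6 CPM in control (0.18, SE 0.06, edgeR adjusted p 0.0124). upd3 had 13 and 17 counts in Levodopa and 2 and 13 in control, the only one of the 9 genes whose columns overlapped between the groups (0.73, SE 0.75, edgeR adjusted p 0.417). Of the other ligand genes, upd2 had 6 and 10 counts in Levodopa and 4 and 3 in control (0.89, SE 1.04, edgeR adjusted p 0.481), and upd1 had 0 and 3 in Levodopa and 1 and 1 in control, below the filter. For the other 8 of 9 genes the columns did not overlap, beside 76.8% of all genes tested: 5 were higher in Levodopa, beside 37.3%, and 3 lower, beside 39.5%.

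Gene length moved with fold change at 25 °C, and the short Turandot genes sat where the median of all genes was negative and dome, hop, Stat92E and Socs36E where it was positive. Across 11790 genes Spearman's rho between length and log2 fold change was 0.354, a description across genes that share the same libraries. The 225 genes with the length of the Turandot genes, 530 to 602 bases, were at -0.28 in median log2 fold change. The 1344 genes of 3503 to 5210 bases, the range of Socs36E, dome, hop and Stat92E, were at 0.27.

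With the length trend removed, TotA was at -0.02 (edgeR adjusted p 0.818), TotX at 0.01 (0.955), hop at 0.10 (0.330) and dome at -0.12 (0.102). Stat92E then lay below control, at -0.17 (edgeR adjusted p 1.4e-10). Socs36E stayed higher in Levodopa, at 0.23 (edgeR adjusted p 8.01e-05), and TotM, at 0.67, had an edgeR adjusted p of 0.00422. TotC was at 0.11 and upd3 at 0.84. The alternatives of scaling, filter, length trend and DESeq2 each gave an adjusted p. Of the 9 genes, only Socs36E was higher in Levodopa under all of them with that p (edgeR or DESeq2) under 0.05. Its log2 fold change ran over 0.23 to 0.51, also with single columns left out. In the main edgeR test 26.5% of all genes were higher with an adjusted p under 0.05. The share of all genes that passed under every alternative was not counted.

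**Figure D5:**
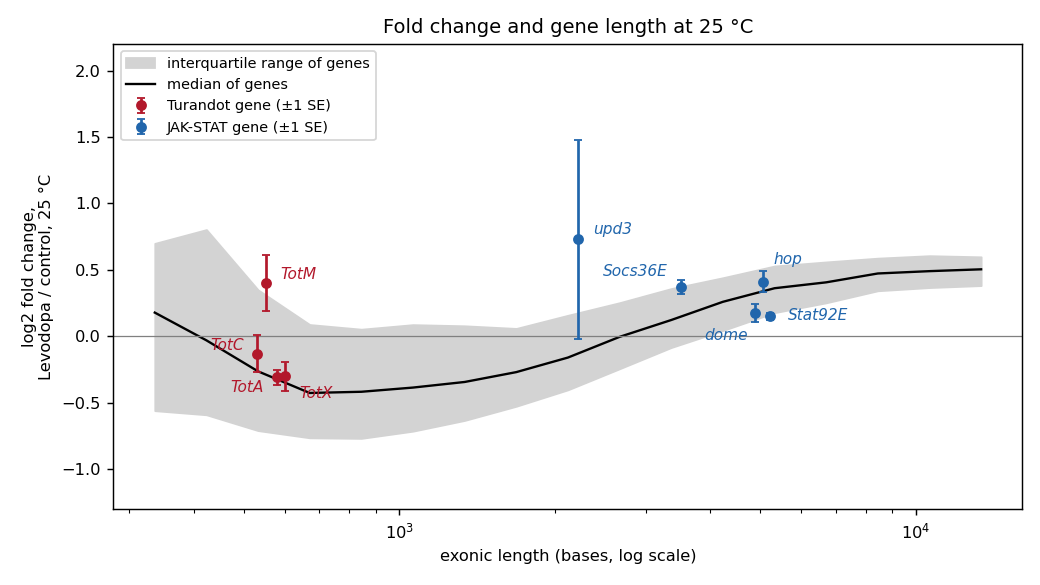
Log2 fold change of Levodopa over control at 25 °C against exonic length on a log axis; the line and band are the median and the interquartile range of all genes in length bins, and points with bars of 1 SE are the Turandot (red) and JAK-STAT (blue) genes. The median of all genes falls over the shortest lengths and climbs from there; TotA and TotX lie close to it, TotM and upd3 lie above it and Socs36E lies above the median at its length.

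Fat body markers at 25 °C summed to 3689 and 3680 CPM in the Levodopa columns and 5651 and 5731 CPM in the control columns. Of the 9 that could be tested 2 were lower and 1 was higher, beside 3.14% and 2.02% of all genes tested. The largest log2 fold changes went opposite ways, at -4.05 for Cyp4g1 and 3.10 for Lsp2. Lsp1alpha was at 0 in both control columns. Haemocyte markers summed to 642 and 647 CPM in Levodopa and 787 and 784 CPM in control, with 1 of 9 lower. These lower sums lay beside the lower TotA and TotX values, and their part was not tested.

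Of the other tissue markers at 25 °C, those of neurons moved with the pathway genes and those of photoreceptors had a lower sum. Neuron markers summed to 1957 and 1954 CPM in Levodopa and 1347 and 1323 CPM in control. All 5 had a positive log2 fold change (median 0.53) and an edgeR adjusted p under 0.05, and 0 of 5 reached 2-fold. Of all genes tested 58.5% had an edgeR adjusted p under 0.05, and 26.5% had it with a higher value in Levodopa. Photoreceptor markers summed to 48347 and 48204 CPM in Levodopa and 62224 and 62036 CPM in control, with 4 of 5 negative (median -0.02). Glia markers summed to 986 and 978 CPM in Levodopa and 946 and 945 CPM in control, with 3 of 5 positive (median 0.15). Muscle markers summed to 1860 and 1848 CPM in Levodopa and 1723 and 1741 CPM in control, with 3 of 5 positive (median 0.26). None of these markers was at 0, and their values were not freed of the length trend. Their part in the higher values of Socs36E, hop, Stat92E and dome was not tested.

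The remaining genes of the pathway and its known inputs were read from lists by role. Among the receptor, kinase and STAT genes, 0 of 4 passed in each of the 4 comparisons. The second receptor gene, et, which encodes the short receptor, had 611 counts in H1OE, 516 in Levodopa and 408 in control at 29 °C, a ratio of H1OE to control of 1.32 (1.16 to 1.50) and of Levodopa to control of 1.17 (1.02 to 1.33). At 25 °C its log2 fold change was -0.20 (SE 0.13, edgeR adjusted p 0.166).

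Of the 7 inhibitors of the pathway 0 passed in each comparison. Socs16D had a log2 fold change of 0.45 at 25 °C (SE 0.06, edgeR adjusted p 4.31e-13). Socs44A was at -0.22 in Levodopa over control at 29 °C and at 0.19 in H1OE over Levodopa, and Ptp61F, a phosphatase that acts on the kinase and on Stat92E, was at 0.22 in H1OE over control. Of the 7 positive regulators 0 passed in each comparison as well. Those with the largest differences were asrij at -0.74 at 25 °C (SE 0.07, edgeR adjusted p 6.7e-25), BRWD3 at 0.33 in the same test (SE 0.06, edgeR adjusted p 1.19e-07), Cdk4 at 0.50 in Levodopa over control at 29 °C, and nxf2 at 0.62 in H1OE over Levodopa and 0.33 in H1OE over control. At 25 °C DESeq2 called 0 genes in each of these lists too. Genes with an edgeR unadjusted p under 0.05 were 3 of 4 receptor, kinase and STAT genes, 3 of 7 inhibitors and 2 of 7 positive regulators, beside 61.6% of all genes tested.

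Reported targets of Stat92E, a list that includes TotA, TotM, dome and Socs36E, mostly did not pass. In H1OE against control 5 of 19 were lower and 0 higher (median log2 fold change -0.27). Among all genes compared 3.77% were lower and 3.35% higher. They were TotA, TotM, Tep1, Nplp2 and Diedel. Tep1, which encodes a thioester-containing protein of the immune response, had 0 counts in H1OE, 6 in Levodopa and 45 in control. Taking 3 counts as the limit for the H1OE library, it was 17.0-fold lower there than in control. This value leaves out the counting error of the 45 control counts. Nplp2, a neuropeptide-like precursor, had 10414 counts in H1OE, 21450 in Levodopa and 22934 in control with a ratio of H1OE to control of 0.400 (0.391 to 0.409). Diedel, a secreted cytokine known to restrain the Imd pathway, had 3, 12 and 21 counts in the same libraries, a ratio of H1OE to control of 0.126 (0.0240 to 0.422).

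In Levodopa against control at 29 °C 2 of 19 targets were lower, beside 1.54% of all genes compared: Tep1, by 8.14-fold (3.46 to 23.3), and TotM. In H1OE against Levodopa 2 of 18 were lower, beside 3.01% of all genes compared: TotA and Nplp2, the second by 2.15-fold (2.11 to 2.21). At 25 °C 1 of 18 was called, Tep1, which was higher in Levodopa: it had 22 and 30 counts in Levodopa and 9 and 5 in control (log2 fold change 1.59, SE 0.66, edgeR adjusted p 0.0277), and DESeq2 called 0 of 18. CG13559, at -0.99 (SE 0.32, edgeR adjusted p 0.00389), came next in size. Of all genes tested at 25 °C 5.16% were called. Without the fold minimum 14 of 18 targets had an edgeR adjusted p under 0.05, beside 58.5% of all genes tested. By DESeq2 11 of 18 had an adjusted p under 0.05.

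Stress MAP kinase genes, an input to Turandot induction, did not pass: 0 of 9 in each comparison. At 25 °C 5 of 9 had an edgeR unadjusted p under 0.05, beside 61.6% of all genes tested, and DESeq2 called 0. The largest differences were of p38c, at -0.87 in H1OE over control and -0.84 in H1OE over Levodopa with 28 counts in H1OE, 56 in Levodopa and 53 in control, and at -0.74 at 25 °C (SE 0.23, edgeR adjusted p 0.00343). Mekk1, the kinase known to be required for Turandot induction, had a ratio of 1.20 in H1OE over control (1.14 to 1.27) and 1.13 in Levodopa over control (1.06 to 1.19). The p38 kinase kinase gene lic was at -0.37 in H1OE over control and -0.34 in H1OE over Levodopa, p38a at 0.16 in Levodopa over control, and Mkk4 at 0.60 at 25 °C (SE 0.05, edgeR adjusted p 2.6e-35).

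Of 14 genes of the JNK pathway, whose activity is known to induce upd3, 10 had a negative log2 fold change in H1OE over control (median -0.19). Gadd45 went the other way and was higher in H1OE. This stress-inducible gene had 427 counts in H1OE, 142 in Levodopa and 71 in control, 5.30-fold higher in H1OE than in control (4.11 to 6.91) and 2.87-fold higher in H1OE than in Levodopa (2.37 to 3.50). It was 1.84-fold higher in Levodopa than in control (1.38 to 2.49), which did not pass. The apoptosis gene rpr had 10 counts in H1OE, 47 in Levodopa and 21 in control and was lower in H1OE than in Levodopa by 4.92-fold (2.45 to 10.9).

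The remaining JNK genes stayed inside the size rule, so 1 of 14 was higher and 0 lower in H1OE against control, 1 higher and 1 lower in H1OE against Levodopa, and 0 of 14 passed in Levodopa against control at 29 °C and at 25 °C. Among all genes compared, 3.35% were higher and 3.77% lower in H1OE against control, and 3.15% and 3.01% in H1OE against Levodopa. At 25 °C 10 of 14 had an edgeR unadjusted p under 0.05, beside 61.6% of all genes tested, and DESeq2 called 0. The largest values there were -1.21 for Ilp8, a damage-released insulin-like peptide with 2 and 3 counts in Levodopa and 0 and 10 in control (SE 1.24, edgeR adjusted p 0.414), and 0.86 for rpr (SE 0.33, edgeR adjusted p 0.0149).

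Of 9 genes of the Imd pathway, which ends in the NF-kappaB factor Relish, 0 passed in H1OE against control, 1 in each of the other comparisons at 29 °C and 0 at 25 °C. Among all genes compared 2.69% passed in Levodopa against control at 29 °C and 6.16% in H1OE against Levodopa. Rel had 7536 counts in H1OE, 3479 in Levodopa and 4005 in control, 2.07-fold higher in H1OE than in Levodopa (1.99 to 2.16) and 1.66-fold higher in H1OE than in control (1.60 to 1.72). The peptidoglycan receptor gene PGRP-LC had a ratio of 1.53 in H1OE over control (1.42 to 1.64). pirk, an inhibitor of the Imd pathway, had 195 counts in H1OE, 90 in Levodopa and 212 in control and was 2.56-fold lower in Levodopa than in control (1.99 to 3.31); in H1OE over Levodopa its log2 fold change was 0.97. The adaptor gene Fadd was at -0.43 in Levodopa over control at 29 °C. At 25 °C pirk was at 0.43 (SE 0.14, edgeR adjusted p 0.00375) and imd at -0.29 (SE 0.08, edgeR adjusted p 0.000655), 2 of 9 had an edgeR unadjusted p under 0.05, beside 61.6% of all genes tested, and DESeq2 called 0.

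Genes whose levels followed those of the members most closely were ranked by the root mean square distance of centred log2 values over the 7 columns of both tables, among 8939 genes with at least 50 counts in 1 library of each table. For TotA, whose own values varied by 0.66 log2 units around their mean, the nearest was Oseg5 at 0.0926, then asRNA:CR44960 at 0.123 and CG31664 at 0.131. Oseg5 had log2 fold changes of -2.24 in H1OE over control and -0.40 in Levodopa over control at 29 °C, beside -2.33 and -0.52 for TotA. For TotC the nearest were CG42807 (0.169), CG10621 (0.170) and Ilp3 (0.180). Ilp3, which encodes an insulin-like peptide, had -1.44 in H1OE over control and -0.97 in Levodopa over control at 29 °C, where TotC had -1.48 and -1.45.

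Socs36E and Stat92E varied less, so many genes lay near them. Socs36E, with a spread of 0.14 log2 units, had bru3 (0.0197), pum (0.0205) and fok (0.0217) as its nearest, all below 0.03. Stat92E, with a spread of 0.13, had CG3961 (0.0277), Ms (0.0285) and ogre (0.0287). These distances rest on 5 samples and describe likeness only.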

How the data were processed

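The authors deposited whole-number counts per gene for every library and FPKM values derived from them; the deposited FPKM at 29 °C imply library sizes 0.2 to 3.46% under the sums of the count columns. The aligner was HISAT2 2.2.1 and the build dm6, per the submitters' processing notes. How reads were counted (tool, strand, multiply matching reads, annotation release) is not given in the sources used here. In the 29 °C table, 2 further value columns belonged to no labelled sample and were not used.

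Groups were taken from the sample labels. The members, lists, tests and alternatives were chosen with earlier results of these data known. Counts at 25 °C (2 columns per sample) were tested with edgeR 4.0.16 in R 4.3.3 (quasi-likelihood F test, TMM scaling, Benjamini-Hochberg over all genes with at least 10 counts in 1 library, adjusted p 0.05 and 2-fold); DESeq2 1.42.0 was an alternative. The common biological coefficient of variation between columns was 2.87%. At 29 °C, with 1 library per group, no test was made: the size rule adds 10 counts, at mean library size, to each TMM-scaled library and asks for a 2-fold difference and at least 10 counts in 1. These 10 counts are part of every log2 fold change at 29 °C, but not of the printed folds and ratios, which carry exact 95% binomial counting intervals (Python 3.11.15, scipy 1.17.1). CPM are on TMM-scaled library sizes. The named-gene rule took all 9 members, all Turandot and Unpaired genes, the 2 genes of each pathway list with the largest change in each comparison, and the 3 genes nearest in pattern to TotA, TotC, Socs36E and Stat92E; further list genes named because they passed were chosen after their values were seen. In simulated counts with column-like spread, the 25 °C test recovered 99 of 100 genes changed 2.5-fold and 100 of 100 changed 4-fold. Members matched the annotation by gene identifier. The planned motif search was not run and no sequences were used here. Alternatives covered scaling, low-count filters, added counts, the length trend (lowess), DESeq2 and leaving out each column.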

Additional observations from a re-analysis of the deposited data

Results flagged for a closer look

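Levodopa over control had opposite signs at 25 °C and at 29 °C for 4 of the 9 genes. At 25 °C their columns did not overlap between the groups, as for 76.8% of all genes tested. At 29 °C 1 library per group gives a sign to any difference. TotM had a log2 fold change of 0.40 at 25 °C and -1.12 at 29 °C. TotX had -0.30 at 25 °C and 0.09 at 29 °C, where the counting interval of its ratio, 0.954 to 1.19, includes no difference. Stat92E had 0.15 at 25 °C and -0.11 at 29 °C, and Socs36E had 0.37 at 25 °C and -0.12 at 29 °C. The difference between the temperatures was not tested, because the tables are separate and the 29 °C groups have 1 library each. The 29 °C values of TotX, Stat92E and Socs36E did not pass the size rule, and with the length trend removed Stat92E at 25 °C was at -0.17 and TotX at 0.01.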

How the results depend on the processing

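Of 232 alternative values of single genes, 221 kept their direction and side of the call rule (25 °C) or moved by less than their counting interval (29 °C), 5 moved further and 6 at 25 °C changed sign; the only single-gene call that changed was that of TotM in Levodopa at 29 °C. At 29 °C, uncalled values near 0 also crossed it in H1OE over control: dome ran over -0.09 to 0.04 and Socs36E over -0.02 to 0.06. At 25 °C, for TotC the value was 0.0082 with total-count scaling and 0.11 with the length trend removed. Without that trend TotX was at 0.0092, dome at -0.12 and Stat92E at -0.17. TotA went from -0.31 to -0.02 and hop from 0.41 to 0.10 once the trend was removed. Both count among the 221, because they kept their sign and neither was called. upd3 ran over -0.0012 to 2.49 when single columns were left out. The number of the 9 genes called was 4 in H1OE against control and 2 in H1OE against Levodopa under each alternative run, and 0 at 25 °C under each; in Levodopa against control at 29 °C it was 2, but 1 with the length trend removed.

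The background counts moved more. With at least 50 counts in 1 library, 399 of all genes were called at 25 °C (609 with the main filter), 82 in Levodopa at 29 °C (300), 400 in H1OE against control (808) and 367 in H1OE against Levodopa (700). With 2 counts added in place of 10, the 29 °C counts were 754, 1371 and 1293 in the same order. At 25 °C the split was 238 higher and 371 lower, but 356 and 208 with total-count scaling, which moved the median of all genes by 0.14, and 314 and 177 once fold changes were freed of the length trend; the split was 153 and 373 without Levodopa column 1 and 137 and 352 without Levodopa column 2. In Levodopa at 29 °C the split was 128 higher and 172 lower, and 169 and 133 with the trend removed, and 26 and 56 with at least 50 counts.

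No paired analysis was possible because the labels carry no replicate numbers and each group is 1 labelled sample. The 29 °C differences rest on 1 library per group, and upd3 and the other ligand genes had too few counts for a difference to be detectable at this depth.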
